A study of Rattus norvegicus with 32 samples.

Results

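C6 rat glioma cells that received angiotensin II (Ang II) after Losartan were compared with C6 cells that received Ang II alone, 6 h after Ang II was added. The comparison holds 8 of the 32 arrays of the series, selected by their titles: 4 arrays of Ang II + Losartan (Ang II + Los) and 4 of Ang II, numbered 1 to 4 in both groups. C6 is a single established line from a rat brain tumour that had been induced by a chemical carcinogen. In every group the cells were grown to confluence in medium with fetal bovine serum, penicillin and streptomycin. The Ang II group then received 100 nM Ang II, and the Ang II + Los group received 10 µM Losartan 30 min before the same dose. Control cells and cells given 10 µM PD123319 in place of Losartan (Ang II + PD) completed each set of 4, which was collected at 3 h and at 6 h. No group with Losartan and no Ang II was analysed here, so that a difference between Ang II + Los and Ang II holds any effect of Losartan itself.

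Ang II is the effector peptide of the renin-angiotensin system. It binds the AT1 and AT2 receptors, both of which span the membrane and couple to G proteins. AT1, encoded in the rat by Agtr1a and Agtr1b, is known for signalling through Gq proteins, phospholipase C and calcium, for switching on the ERK kinases by way of the EGF receptor, and for inducing growth factors and matrix genes. AT2, the product of Agtr2, often opposes these actions. Losartan is an antagonist of AT1 and PD123319 of AT2, and the comparison of Ang II + Los with Ang II asks which transcripts differ when AT1 is blocked while Ang II is present.

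The arrays read each transcript through oligonucleotide probes of fixed sequence, printed here as deposited, 5′ to 3′ and wholly in lower case, since no base was singled out. Those of a receptor and of 3 genes on which later values rest are shown, and the loci are those of the deposited annotation on rat build rn4.
Agtr2, the AT2 receptor: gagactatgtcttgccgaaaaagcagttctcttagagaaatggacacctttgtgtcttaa
Krt5, the gene with a symbol whose signal was farthest above Ang II: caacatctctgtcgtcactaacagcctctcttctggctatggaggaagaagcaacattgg
Fcgr2b, an Fc receptor among the study's hub genes: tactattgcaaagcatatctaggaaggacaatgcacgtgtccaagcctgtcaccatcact
Bcar1, a focal adhesion scaffold: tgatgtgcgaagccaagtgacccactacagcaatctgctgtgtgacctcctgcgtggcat
The Fcgr2b probe lay at chr13:86815061-86815120 and the Bcar1 probe at chr19:41646718-41646777, both on the minus strand. A second Bcar1 probe lay at chr19:41646231-41646290. The Agtr2 probe was placed on an unassigned sequence and the Krt5 probe had no locus in the annotation. The probes of Agtr1a at chr17:40629499-40629558 and of Agtr1b at chr2:105503483-105503542, both on the minus strand, are given by position alone.

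On the 8 arrays between 64.2% and 75.8% of the spots were well above background. This is a flag of the scanner software for spots clearly brighter than their background. The log2 signals of any pair of the 8 arrays correlated at r of 0.9757 to 0.9974. Replicates with the same number shared a slide, and on each slide the Ang II array held the second position and the Ang II + Los array the third, so that slide position and treatment cannot be told apart. Control held position 1 and Ang II + PD position 4 on each slide, and the same limit holds for their comparisons. Replicates 1 to 3 were scanned together and replicate 4 in another scan. Differences were therefore taken within a slide and averaged over the 4 slides, with the remaining spread estimated over the 16 arrays of 6 h. Nothing in the labels states that the 4 replicates came from separate cultures, so that the p-values measure only the spread between these samples.

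No gene differed between Ang II + Los and Ang II at an adjusted p under 0.05. Of 16446 genes tested, 327 (1.99%) had an unadjusted p under 0.05, and the lowest adjusted p over all genes was 0.9999 by limma with Benjamini-Hochberg adjustment. With no difference at all, a share of about 0.05 of the genes would fall under that limit, and 1.99% lies below this share. Limits were set at 0.05 for the unadjusted p and at 1.2 for the fold in either direction, and 175 genes (1.06%) were past both. Of these, 88 were higher (0.535% of the genes tested) and 87 lower (0.529%) in Ang II + Los, and the word "past" below means past these 2 limits only. The fitted log2 differences of the 175 genes ran from -1.45 to 1.48, with a median fold of 1.36 in its own direction. Against this, the difference was under 1.2-fold in 95.3% of all genes, and the 95% interval lay within 1.5-fold of no difference for 14469 genes (88%) and within 2-fold for 16054 genes (97.6%).

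The genes past the limits were mostly dim. Their median log2 signal was 4.26, against 7.79 for all genes tested. When the genes were sorted by mean signal and split into 3 groups of 5482, the dimmest group held 158 genes past the limits (2.88%), the middle group 13 (0.237%) and the brightest 4 (0.073%). The median standard error (SE) of the log2 difference was 0.154, 0.097 and 0.08 in the same order. All 8 arrays were well above background for 100 of the 175 genes, and for 15264 of all genes tested. A signal of every array in one group above every array of the other was found for 42 genes (0.255%), with 22 higher (0.134%) and 20 lower (0.122%) in Ang II + Los.

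**Figure D1:**
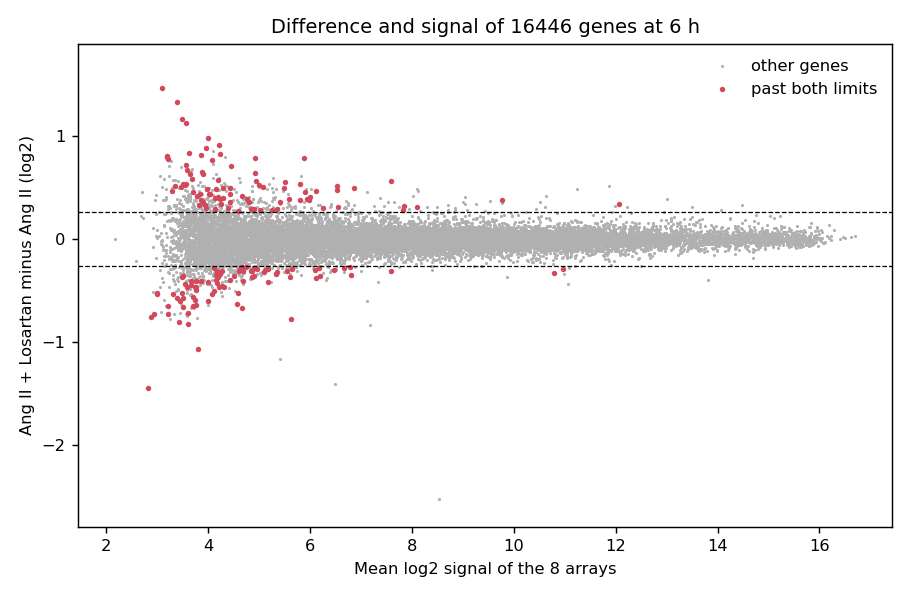
Fitted difference Ang II + Losartan minus Ang II at 6 h (log2, vertical axis) against the mean normalized log2 signal of the 8 arrays (horizontal axis) for 16446 genes. Red points are the 175 genes past both limits, grey points all others, and dashed lines mark a fold of 1.2. Most red points lie at the dim end, where the grey cloud is also widest.

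The 4 slides gave little common pattern. Across genes, the difference on replicate 1 correlated with those on replicates 2, 3 and 4 at r of -0.09, -0.093 and -0.102, while the other pairs of slides gave r of 0.064 (replicates 2 and 3), 0.115 (2 and 4) and 0.131 (3 and 4). Genes are not independent replicates, and these values describe the slides without a test. Measured the same way, the pairs of slides gave 0.028 to 0.568 for Ang II x Control at 6 h, -0.104 to 0.276 for Ang II + PD x Ang II at 6 h, and -0.308 to 0.335 for the Losartan comparison at 3 h. The SD of the differences over genes was 0.238, 0.238, 0.318 and 0.218 on replicates 1 to 4. A difference of one sign on all 4 slides was found for 2160 of the genes tested (13.1%), 974 higher (5.92%) and 1186 lower (7.21%), and for 129 of the 175 genes past the limits. The limit on p favours genes whose slides agree, so that this last count carries no weight of its own. Without replicate 1 the count past both limits was 494 in place of 175, of which 134 were shared, and without replicates 2, 3 or 4 it was 201, 132 and 194.

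**Figure D2:**
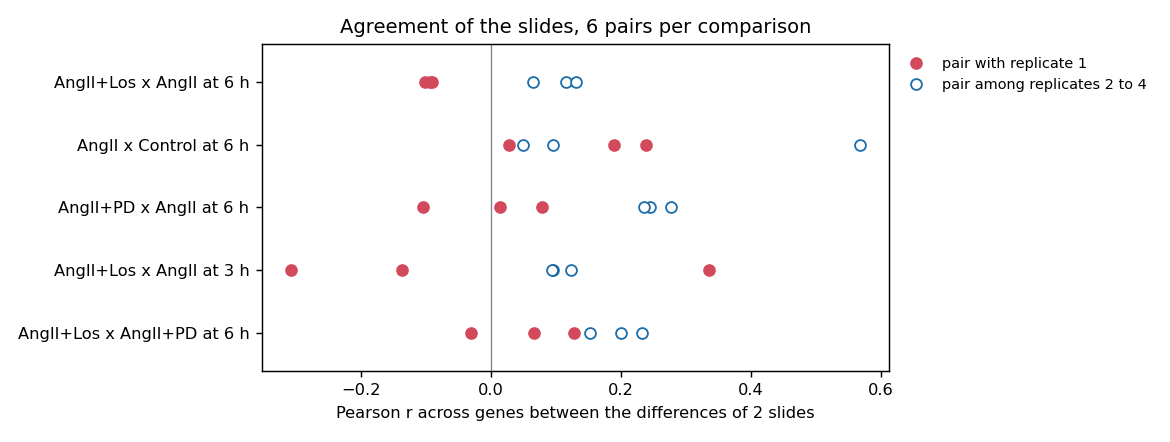
Pearson r across genes between the differences of 2 slides (horizontal axis) for the 6 pairs of slides in 5 comparisons (rows). Filled points are pairs that include replicate 1 and open points pairs among replicates 2 to 4. In the Losartan comparison of 6 h the filled points sit at -0.102 to -0.09 and the open points at 0.064 to 0.131.

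The probes of the receptor blocked by Losartan were not flagged as well above background on any array. The probes of Agtr1a, Agtr1b and Agtr2 were well above background on 0 of the 16 arrays of 6 h, and likewise on 0 of the 16 arrays of 3 h. On the 8 arrays the log2 signal ran from 0.91 to 1.15 for Agtr1a, from 0.95 to 2.88 for Agtr1b and from 0.65 to 1.18 for Agtr2. The lowest signal that the software called well above background was 2.15 to 3.28, depending on the array. Mas1, a receptor for angiotensin-(1-7), was also well above background on 0 of 16 arrays at 6 h. Agt, the precursor of Ang II, passed on 6 of the 8 arrays. These are bounds on what the probes detected, and the data hold no measure of receptor protein. The paper did measure both receptor transcripts by PCR. It reports that with Ang II AT1 rose and AT2 fell slightly at 3 h, and that both fell without significance at 6 h.

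Of 16 genes of the renin-angiotensin system, 7 were tested and none had an unadjusted p under 0.05. Ace, which forms Ang II, differed by 0.08 ± 0.10 (log2 ± SE). Agtrap, a protein that binds AT1 and aids its internalization, had log2 signals of 9.12 ± 0.27 in Ang II and 9.14 ± 0.20 in Ang II + Los (SD, 4 arrays each), with a difference of 0.01 ± 0.07. Atp6ap2, the prorenin receptor, was at -0.10 ± 0.11, and the aminopeptidases Rnpep, Lnpep and Enpep at -0.06 ± 0.09, -0.04 ± 0.13 and 0.15 ± 0.19. The 95% intervals of all 7 genes lay within 1.5-fold of no difference.

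Among genes with a symbol, an unadjusted p under 0.05, one sign on all 4 slides and 8 arrays well above background, 35 were higher and 95 lower in Ang II + Los. The 15 farthest from 0 in each direction are described here, and their values are a ranking of this comparison with adjusted p-values that rounded to 1. Aqp2, a water channel regulated by vasopressin in the kidney collecting duct, had the lowest p of the 15 higher genes. Its probe, at chr7:138330832-138330891, gave log2 signals of 5.55, 5.83, 5.76 and 5.88 in Ang II and of 5.85, 6.21, 6.43 and 6.10 in Ang II + Los. All slides had the higher signal in Ang II + Los, but the lowest Ang II + Los array lay below the highest Ang II array, so the groups overlapped by 1 pair. The difference was 0.39 ± 0.09 (unadjusted p = 0.000904, 95% interval 0.198 to 0.587), a fold of 1.31. In the Control arrays Aqp2 was at 6.03, 6.60, 6.49 and 6.38, and in Ang II + PD at 5.50, 6.00, 5.73 and 5.99. Ang II + Los was thus 0.23 below Control and 0.34 ± 0.09 above Ang II + PD (unadjusted p = 0.00246), while Ang II was 0.62 below Control. These comparisons share arrays and are given side by side only.

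Krt5, a keratin of basal epithelial cells whose probe sequence is given above, had the largest difference of the 15 higher genes. Its log2 signals were 3.54, 3.57, 4.16 and 3.74 in Ang II and 5.41, 4.92, 4.38 and 3.97 in Ang II + Los, and the groups overlapped. The differences were 1.87 and 1.35 on replicates 1 and 2 but 0.22 and 0.23 on replicates 3 and 4, for a mean of 0.92 ± 0.33 (unadjusted p = 0.0157, a fold of 1.89). These signals lay below the median of 7.79 for all genes.

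Psg19, a member of the pregnancy-specific glycoproteins with a probe at chr1:78129474-78129533, was at 2.84, 3.47, 3.77 and 3.98 in Ang II and at 4.42, 4.62, 4.47 and 4.09 in Ang II + Los. Here the groups did not overlap, although the gap on replicate 4 was 0.11 against 1.57 on replicate 1, and the difference was 0.89 ± 0.24 (unadjusted p = 0.00327). Acrbp, a binding protein of sperm proacrosin, was the most even of the higher genes, with slide differences of 0.56, 0.38, 0.39 and 0.45. Its signals were 3.47, 3.88, 3.92 and 3.95 in Ang II and 4.03, 4.26, 4.31 and 4.40 in Ang II + Los, without overlap. Synpo, an actin-binding protein of dendritic spines and podocytes, was the remaining gene of the 15 whose groups did not overlap, at 5.21 to 6.00 in Ang II and 6.06 to 6.52 in Ang II + Los, with 0.79 ± 0.34 (unadjusted p = 0.0398). Its slide differences were 0.87, 1.16, 1.05 and 0.06.

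The remaining higher genes had overlapping groups. Coch, an extracellular protein of the inner ear, was at 0.83 ± 0.24 and Vegp2, a lipocalin first described in von Ebner's glands, at 0.72 ± 0.19. Kcnmb3, a subunit of calcium-activated potassium channels, was at 0.65 ± 0.29. Cplx3, a complexin of synaptic vesicle release, was at 0.54 ± 0.18, and its difference on replicate 1 was 0.05 against 1.13 on replicate 2. Dmrtc2, Gstm6l, Thap6, Psd2 and Lhx4 lay between 0.48 and 0.51, and Atp1b2, a beta subunit of the sodium pump found on glia, at 0.40 ± 0.16. Psg19, Vegp2 and Gstm6l belong to families of near-identical genes, and a probe may read more than the member it names.

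Of the lower genes, Omd (osteomodulin, a matrix proteoglycan of bone) had the lowest p. Its probe, at chr17:21015198-21015257, gave log2 signals of 3.43, 3.51, 4.52 and 4.67 in Ang II and of 2.64, 2.76, 3.89 and 4.24 in Ang II + Los. Replicates 3 and 4 were higher than replicates 1 and 2 in both groups, which made the groups overlap, while within the slides the difference was -0.79, -0.74, -0.63 and -0.43. The mean was -0.65 ± 0.13 (unadjusted p = 0.00043, 95% interval -0.941 to -0.357), a fold of 0.638. Relative to Control, Ang II was 0.16 higher and Ang II + Los was at -0.49.

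Igfbp5, a secreted protein that binds insulin-like growth factors, was measured by 2 probes, at chr9:72000312-72000371 and chr9:72003659-72003718. Averaged over both, its signals were 5.93, 7.44, 7.07 and 7.51 in Ang II and 5.47, 7.39, 6.73 and 6.97 in Ang II + Los. Replicate 1 lay low in both groups, and the difference was -0.47, -0.05, -0.34 and -0.55 on replicates 1 to 4. The mean was -0.35 ± 0.09 (unadjusted p = 0.00205), and the probes taken singly gave -0.34 and -0.37. Relative to Control, Ang II was 0.45 higher and Ang II + Los 0.09 higher.

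Lama5, a chain of the laminins of basement membranes, was the only gene of the 30 above a log2 signal of 9. It was at 10.18, 11.48, 10.57 and 11.58 in Ang II and at 9.96, 11.28, 9.88 and 11.36 in Ang II + Los, with -0.33 ± 0.15 (unadjusted p = 0.0486). The slide differences were -0.22, -0.19, -0.68 and -0.23, and replicate 3 thus lay apart from the others. Rdh8, a retinol dehydrogenase of photoreceptors, had the most negative mean at -0.77 ± 0.33, and the simple-epithelial keratin Krt7 followed at -0.67 ± 0.20, of which -1.56 came from replicate 2 and -0.27 each from replicates 1 and 3. Fgf17, a fibroblast growth factor, was at -0.53 ± 0.21 and Rptn (repetin), an epidermal matrix protein, at -0.47 ± 0.15. Lrit1, the calcium channel subunit Cacnb2, the actin-capping Tmod4, Gpatch3, the vomeronasal receptor Vom2r35, the zinc finger gene Zfp382 and the planar polarity gene Prickle2 lay between -0.42 and -0.32. Vom2r35 also has near-identical relatives. Psg19, Coch and Lrit1 each had another probe that was left out, since it was well above background on 0 arrays of either group. All 30 genes had the same sign on every slide because the rule asked for it, so that this sign carries no weight of its own.

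**Figure D3:**
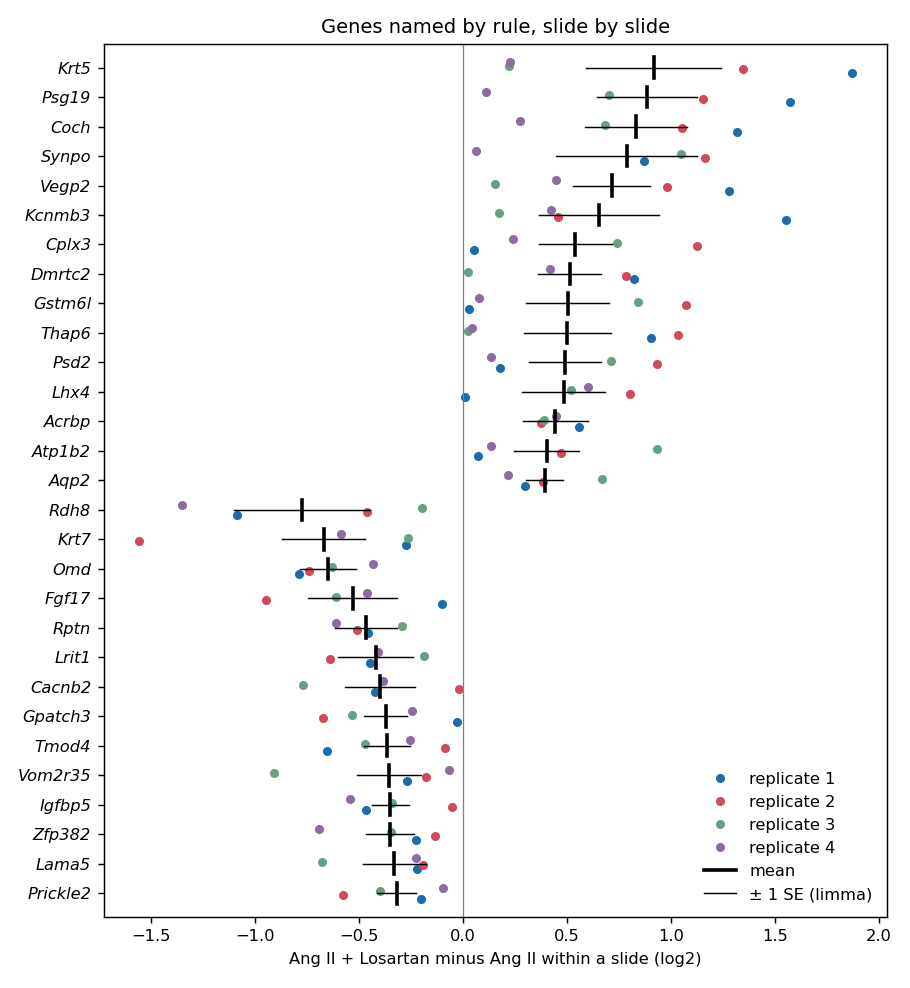
Difference Ang II + Losartan minus Ang II within a slide (log2, horizontal axis) for the highest and lowest genes by the rule, with 1 point per replicate, a vertical bar at the mean and a line of ± 1 SE from limma. Points of one gene spread over more than 1 log2 unit in Krt5, Psg19, Coch, Synpo, Vegp2, Kcnmb3, Cplx3, Gstm6l, Thap6, Rdh8 and Krt7, and over less in the other genes.

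**Figure D4:**
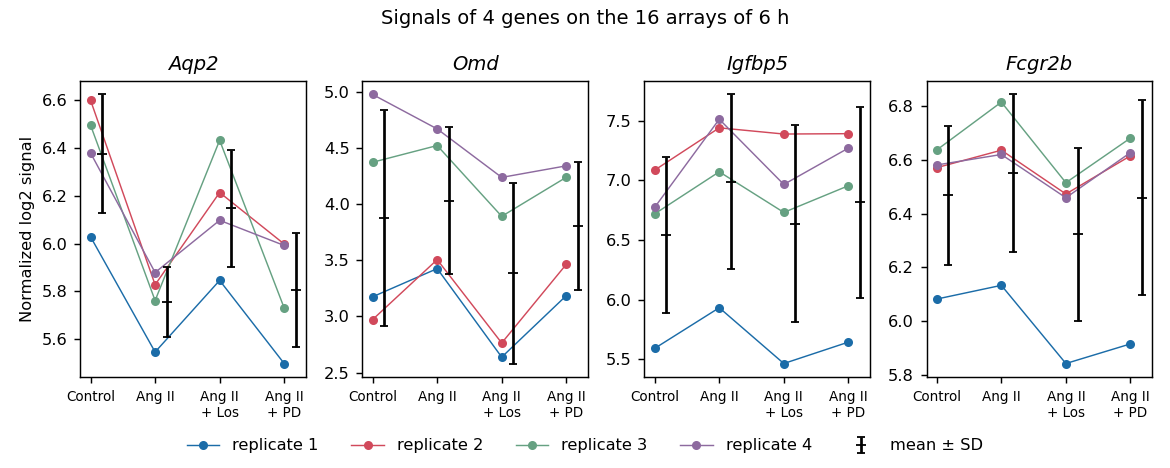
Normalized log2 signal (vertical axis, a range of its own in each panel) of Aqp2, Omd, Igfbp5 and Fcgr2b in the 4 groups of 6 h, with 1 line per replicate and black bars for the mean ± SD of 4 arrays. In each panel the replicates differ in level, and on every replicate Aqp2 is higher and the other genes lower in Ang II + Los than in Ang II.

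Signalling genes downstream of AT1 showed small differences. Of 28 tested genes of G protein and phospholipase C signalling, none was past the limits, 10 were above and 18 below 0, and the median was -0.03, against -0.001 for all genes (8147 above, 8299 below). That median was -0.073 without replicate 1 and turned to 0.013 without replicate 3. Arrb1, a beta-arrestin that ends G protein coupling and internalizes AT1, was at -0.24 ± 0.08 (unadjusted p = 0.00982) with slide differences of -0.13, -0.26, -0.47 and -0.10. Its relative Arrb2 was at 0.13 ± 0.05 (unadjusted p = 0.0334), with differences between 0.08 and 0.19. Itpr1, the calcium release channel of the endoplasmic reticulum, was at -0.18 ± 0.07 (unadjusted p = 0.03). Plcb1, the phospholipase C next to Gq, had the lowest value of the list, -0.28 ± 0.20, with slide differences of -0.25, -0.24, -0.39 and -0.22. Fitted on the 8 arrays alone, without the spread of the Control and Ang II + PD arrays, Plcb1 was past the limits (± 0.05, unadjusted p = 0.00289 by limma, adjusted p = 0.924). Of 25 tested genes of the MAP kinase cascades, none had an unadjusted p under 0.05, with a median of -0.016 (-0.027 without replicate 1 and -0.005 without replicate 2). With the 8 arrays alone Map3k8 of this list and Adam10 of the EGF receptor list were past the limits.

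The genes that ERK signalling induces as its own brakes were mostly a little below 0. Of 16 tested, 15 were below 0 and none was past the limits, and the median was -0.078. The median was -0.044, -0.111, -0.086 and -0.116 on replicates 1 to 4. Etv5, an ETS transcription factor, was lowest, at 10.83, 10.65, 10.42 and 10.44 in Ang II against 10.77, 10.42, 10.03 and 10.35 in Ang II + Los. Its difference of -0.19 ± 0.10 did not reach the limit on p (unadjusted p = 0.0711). Among 20 tested immediate early genes, the fast transcription factors of a growth stimulus, 14 were below 0 with a median of -0.058 (-0.021 without replicate 2), and none had an unadjusted p under 0.05. With the 8 arrays alone Egr2 (0.0097), Klf4 (0.0366) and Fosl2 (0.047) had such an unadjusted p by limma, each inside the fold limit. Egr2 was lowest at -0.22 ± 0.14, and Fosb highest at 0.42 ± 0.35 through 1 slide, where it differed by 2.11 against -0.19 to -0.09 on the others. Of 11 tested EGF receptor family genes and ligands, 8 were below 0 with a median of -0.086 and none past the limits. Egfr itself was not tested, nor were Erbb4, Ereg and Btc, each well above background on 0 of the 8 arrays. The TGF-beta pathway (22 tested) had a median of -0.041, the Wnt pathway (18 tested) -0.072, calcineurin and NFAT (11 tested) -0.065, PPAR factors and targets (11 tested) -0.032 and the circadian clock (19 tested) -0.075, each with no gene past the limits. Leaving out 1 replicate moved these medians, to -0.015 for TGF-beta and -0.042 for Wnt without replicate 4, to -0.008 for calcineurin and NFAT (-0.04 without replicate 4) and -0.048 for the clock without replicate 3, and to -0.008 for PPAR without replicate 2. Fzd2, a Wnt receptor, was at -0.22 ± 0.10 (unadjusted p = 0.0408 by limma), higher on 1 slide and lower on the others.

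Adhesion and matrix genes leaned the same way. Of 24 tested integrin and focal adhesion genes, 22 were below 0 and none was past the limits, with a median of -0.104 and slide medians of -0.027, -0.127, -0.154 and -0.102. Itga1, the collagen receptor subunit, was at 12.62, 12.51, 12.66 and 12.40 in Ang II and at 12.44, 12.48, 12.29 and 12.26 in Ang II + Los, a difference of -0.18 ± 0.06 (unadjusted p = 0.0128). Bcar1 (p130Cas, a scaffold that Src phosphorylates) was at 11.02, 10.55, 10.59 and 10.54 in Ang II and at 10.88, 10.42, 10.40 and 10.44 in Ang II + Los. Its differences of -0.14, -0.13, -0.19 and -0.11 were close to each other, for a mean of -0.14 ± 0.06 (unadjusted p = 0.0341). Src itself was at -0.16 ± 0.07 (unadjusted p = 0.0482). These 3 members stayed under the fold limit. Of the 24 genes, 10 were lower on all 4 slides, beside 7.21% of all genes.

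Matrix proteins, their proteases and inhibitors gave 23 of 29 tested genes below 0, a median of -0.116 (-0.075 without replicate 3) and 2 genes past the limits, both lower: Omd and Lama5. Among all genes 0.529% were past the limits lower. The large proteoglycan Vcan was at -0.22 ± 0.09 (unadjusted p = 0.037) and the protease Mmp3 at 0.11 ± 0.30. Of 20 tested targets of YAP and SRF, the factors that follow cell tension, 17 were below 0 with a median of -0.116 (-0.183 without replicate 1 and -0.201 without replicate 2). Thbs1 (thrombospondin 1), an activator of latent TGF-beta, was past the limits at -0.31 ± 0.11 (unadjusted p = 0.018). Its signals were 5.28, 4.15, 5.46 and 4.49 in Ang II against 5.02, 4.03, 4.76 and 4.33 in Ang II + Los, and the groups overlapped. Synpo of the same list was past the limits in the other direction. With the 8 arrays alone Myh9 of this list and Timp3 of the matrix list were past the limits as well, both lower. The slide medians of this list were -0.007, -0.042, -0.359 and -0.191, with replicate 3 farthest from 0.

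**Figure D5:**
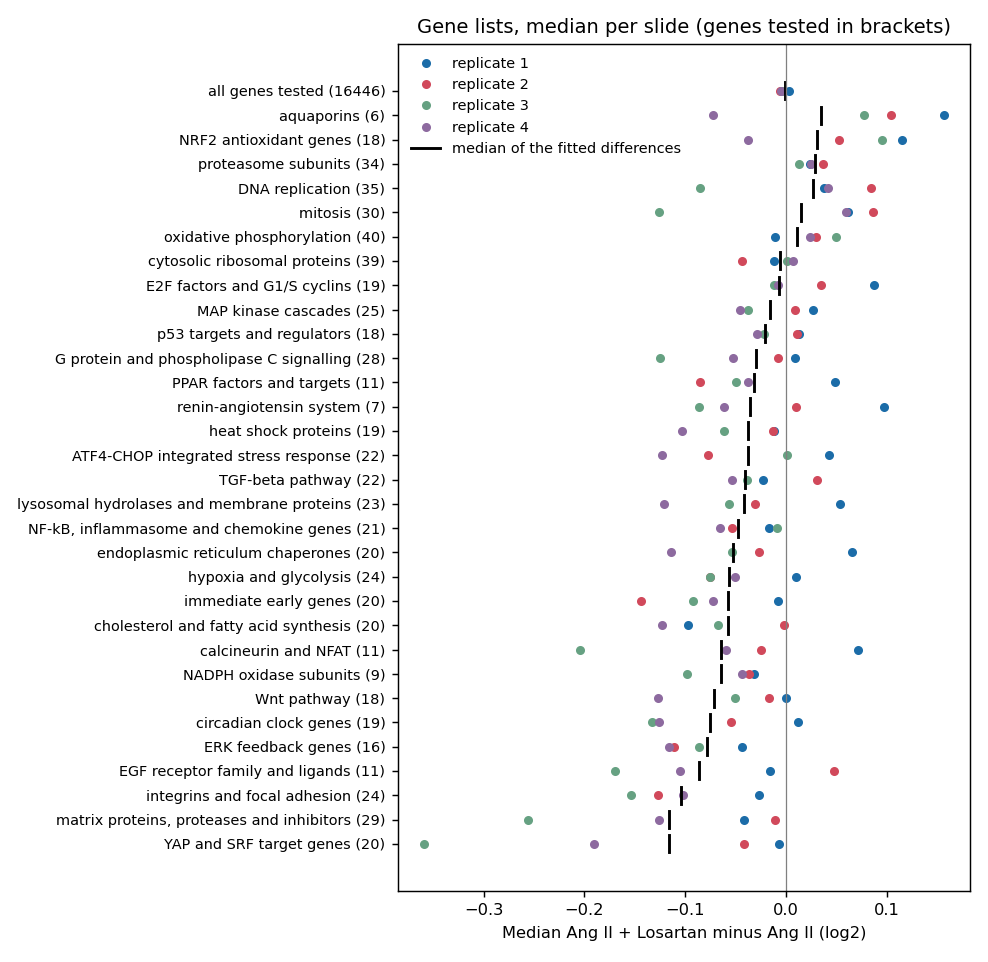
Median difference Ang II + Losartan minus Ang II (log2, horizontal axis) of each gene list (rows, genes tested in brackets), with 1 point per replicate and a black bar for the median of the fitted differences. All genes tested stand at -0.001, and YAP and SRF targets, matrix genes and integrins at -0.116 to -0.104; replicate 3 is far left of the others in the YAP and SRF list.

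Metabolic and stress genes stayed close to Ang II. Of 20 tested genes of cholesterol and fatty acid synthesis, 19 were below 0 with a median of -0.058 (-0.09 without replicate 2) and none past the limits. Srebf2, the master transcription factor of cholesterol synthesis, was at -0.17 ± 0.07 (unadjusted p = 0.0252) and Sqle, which makes squalene epoxide, at -0.17 ± 0.07 (unadjusted p = 0.0291). Of 24 tested genes of hypoxia and glycolysis, 20 were below 0, while Egln3, an oxygen-sensing prolyl hydroxylase, was past the limits at 0.77 ± 0.26 (unadjusted p = 0.0121). Its differences were 1.34, 1.40, -0.12 and 0.47, and the groups overlapped. Nlrp3, the sensor of an inflammasome, was the 1 gene of 21 in the NF-kB, inflammasome and chemokine list past the limits, at -0.37 ± 0.16 (unadjusted p = 0.0439) and lower on 3 of 4 slides. It was dim, at 3.26, 3.59, 3.81 and 4.03 in Ang II and 3.28, 3.24, 3.16 and 3.53 in Ang II + Los. Of 18 tested p53 targets and regulators, Sesn1 (a sestrin) was past the limits at -0.40 ± 0.18, without being well above background on all 8 arrays.

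The 20 tested chaperones of the endoplasmic reticulum had a median of -0.053, with none past the limits. Hspa5 (BiP) was at 13.55, 14.11, 13.58 and 13.93 in Ang II and at 13.62, 14.14, 13.25 and 13.82 in Ang II + Los, a difference of -0.09 ± 0.35. The fit shares its spread over 16 arrays, and Hspa5 had an SD of 1.39 among the Control arrays. In the 16-array fit 7 of the 20 intervals lay within 1.5-fold of no difference, and in a fit of the 8 arrays alone all 20 did. Heat shock proteins (19 tested) had a median of -0.038 (-0.011 without replicate 4), with Hspa4 at -0.24 ± 0.08 (unadjusted p = 0.0112). The 22 tested genes of the ATF4-CHOP stress response had a median of -0.038 (-0.072 without replicate 1 and -0.02 without replicate 4) and the 23 tested lysosomal genes -0.042 (-0.017 without replicate 4), none of them with an unadjusted p under 0.05. Among 9 tested NADPH oxidase subunits, Duox1 was at -0.21 ± 0.09 (unadjusted p = 0.0311).

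The 35 tested DNA replication genes had a median of 0.027 (0 to 0.047 with 1 replicate left out), 19 above and 16 below, and for 34 the interval lay within 1.5-fold of no difference. Gins2, part of the replicative helicase, was highest at 0.16 ± 0.18 and the polymerase Pole lowest at -0.10 ± 0.17. The E2F factors and G1/S cyclins (19 tested) had a median of -0.007, which was negative under 9 of 11 settings and 0.038 without replicate 3. For all 30 tested mitosis genes the interval lay within 1.5-fold, with a median of 0.015 that turned negative without replicate 2 (-0.006) or 4 (-0.005) and was 0.057 without replicate 3. Proteasome subunits (34 tested, 25 above 0) had a median of 0.029 and slide medians of 0.013 to 0.037, oxidative phosphorylation (40 tested, 28 above 0) 0.011 (0.004 without replicate 3), and cytosolic ribosomal proteins (39 tested) -0.006 (0.003 without replicate 4). None of these genes had an unadjusted p under 0.05. In NRF2 antioxidant genes 15 of 18 were above 0 with a median of 0.031, which turned to -0.016 without replicate 1.

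Aquaporins, keratins and olfactory receptors were followed as lists, and no list was tested as a set. The share past the limits was 1.06% of all genes and 2.88% of the dimmest group. Of 6 tested aquaporins, Aqp2 was past and the brain-expressed Aqp1 was lowest at -0.10 ± 0.16. Of 8 tested keratins and genes of the cornified envelope, 3 were past the limits, Krt5 higher and Krt7 and Rptn lower. These genes and Aqp2 were already named above for their differences, so that the counts are no separate evidence. Of 1162 olfactory receptors on the array 145 were tested, and Olr233 was past the limits at -0.58 ± 0.26 (unadjusted p = 0.0462). Its probe was well above background on only 3 arrays of Ang II and 2 of Ang II + Los, and may also read related receptors. Its unadjusted p stayed under 0.05 in 5 of 14 alternatives.

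A list of hub genes drawn up by the study for this comparison was followed as well. It holds genes that the study called DE on these samples, which are no independent evidence, and genes added for their co-expression with them. All 10 genes were tested and none was past the limits. Of the 5 DE hubs, Ctsa, Fcgr2b, Actn4 and Dnajb9 were below 0 and Ccne1 above. Of the 5 added for co-expression, 4 were above 0 and Anxa2 below. Fcgr2b, the inhibitory Fc receptor of macrophages and B cells, was the 1 gene of the 10 with an unadjusted p under 0.05. Its signals were 6.13, 6.64, 6.82 and 6.62 in Ang II and 5.84, 6.47, 6.52 and 6.46 in Ang II + Los, the groups overlapping through replicate 1. The difference was -0.23 ± 0.06 (unadjusted p = 0.00185), a fold of 0.853 that stayed inside the fold limit. These values rest on 1 probe. Another Fcgr2b probe was left out, being well above background on only 2 arrays of Ang II and 1 of Ang II + Los. Ccne1, the cyclin of entry into S phase, was at 0.16 ± 0.09 (unadjusted p = 0.106), with slide differences of 0.20, 0.11, 0.20 and 0.14. With the 8 arrays alone Ccne1 had an SE of 0.05 and an unadjusted p of 0.0184 by limma (adjusted p = 0.924), still inside the fold limit, and Dnajb9 an SE of 0.05. Ctsa was at -0.11 ± 0.08, Actn4 at -0.10 ± 0.07, Timp1 at 0.08 ± 0.09 and Dnajb9 at -0.07 ± 0.41. The replication clamp Pcna was at 0.04 ± 0.13, Cdc2 (the mitotic kinase now called Cdk1) at 0.03 ± 0.08, Prkcdbp (now Cavin3) at 0.02 ± 0.06 and Anxa2 at -0.02 ± 0.06.

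A further list holds the genes that were measured by PCR in the study, also chosen with these arrays in view. Of its 12 genes 10 were tested, and Agtr1a and Agtr2 were too dim on the arrays. Aqp2 was past the limits higher and Nlrp3 lower. Bcar1 had an unadjusted p under 0.05, and its 2 probes gave -0.14 and -0.13. Ctgf (now Ccn2), a matrix-associated growth factor, was at -0.25 ± 0.13 (unadjusted p = 0.0686), with -0.09 and -0.05 on replicates 1 and 2 and -0.49 and -0.39 on replicates 3 and 4. Lamb1 was at -0.12 ± 0.21, Map2k4 at -0.08 ± 0.09, Hbegf at -0.07 ± 0.14, Vegfa at -0.05 ± 0.12 and Prkca at -0.02 ± 0.06.

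Markers of cell types were measured beside these values. Of 12 astroglial markers 8 were tested, among them Vim, Nes, S100b and Glul, and none had an unadjusted p under 0.05, while Gfap, Slc1a3, Slc1a2 and Fabp7 were well above background on 0 of the 8 arrays. The summed linear signal of the tested astroglial markers was 7014 to 8072 in Ang II and 6171 to 7775 in Ang II + Los. All 6 tested markers of the oligodendrocyte lineage were below 0, with a median of -0.14 and sums of 6420 to 8949 and 5714 to 8865. In bulk RNA, fewer cells of a type and less RNA per cell cannot be told apart. Of 9 microglia and macrophage markers 7 were tested, with sums of 548 to 688 in Ang II and 606 to 631 in Ang II + Los, and Ptprc was well above background on 0 of 8 arrays. Fcgr2b stands in this list as well. Of 6 epithelial markers 3 were tested, Krt5 among them, with sums of 424 to 549 and 396 to 539, and Cdh1, Krt8 and Krt18 were well above background on 0 of 8 arrays. Neuron markers (4 tested) summed to 507 to 1271 and 522 to 1012, endothelial markers (2 tested) to 74 to 122 and 80 to 110, and the 1 tested fibroblast and mural marker, Pdgfrb, to 322 to 383 and 269 to 374. The part of any of these cell types in the gene values was not tested.

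The AT1 and AT2 antagonists were compared directly, at the same dose and time, with the contrast Ang II + Los x Ang II + PD. At 6 h, 829 genes (5.04%) were past both limits, 352 higher (2.14%) and 477 lower (2.9%) in Ang II + Los, and no gene had an adjusted p under 0.05 (lowest 0.235). An unadjusted p under 0.05 was found for 1327 genes (8.07%). Coch was 0.83 higher after Losartan than after PD123319 (unadjusted p = 0.00556) and Cplx3 0.67 higher (unadjusted p = 0.00267), while Krt7 was at -0.11 (unadjusted p = 0.598). Acrbp, in contrast, was at -0.28 against Ang II + PD (unadjusted p = 0.103). All of these genes were picked by their difference in Ang II + Los x Ang II, which uses the same Ang II + Los arrays. Their p-values against Ang II + PD are therefore no independent evidence. Beside the 175 genes of Ang II + Los x Ang II, the comparison Ang II + PD x Ang II had 679 genes past the limits (4.13%) and a lowest adjusted p of 0.383. Both use the same 4 Ang II arrays. In each of these contrasts slide position goes with treatment.

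At 3 h the same pair of groups differed more widely but with a larger spread. There 1443 of 13630 genes (10.6%) were past both limits, none had an adjusted p under 0.05 (lowest 0.426, with 1497 genes at an unadjusted p under 0.05), and the median SE was 0.159 against 0.103 at 6 h. The 2 times were normalized separately for these counts. At 3 h the SD of the differences over genes was 0.549, 0.871, 0.222 and 0.322 on replicates 1 to 4. The 3 h arrays lay on other slides and were scanned apart from those of 6 h, so that time, slide and scan cannot be told apart. Among the 13617 genes tested at both times, 60 were past the limits at 6 h (0.441%) and 1442 at 3 h (10.6%). They had 7 genes in common, 11.7% of the former and 0.485% of the latter. The 11.7% lay near the 10.6% of all these genes that were past at 3 h. The means of Efhd1, Akap12 and Slc3a1 were lower at both times, but those of 3 h were uneven over the slides. On replicates 1 to 4 of 3 h Efhd1 differed by -0.204, -2.518, -0.417 and -0.482. Akap12 differed by -0.661, -1.374, 0.011 and -0.162, and Slc3a1 by -2.269, -1.674, -0.027 and -0.123. Akap12, a scaffold of kinases at the membrane, was at -0.31 at 6 h and -0.55 at 3 h, Efhd1, a calcium-binding protein of mitochondria, at -0.30 and -0.91, and Slc3a1, an amino acid transporter subunit, at -0.27 and -1.02. Cplx3 was higher at both times, at 0.54 and 0.43, as were a probe and a transcript without a symbol, and Lrrn4cl had opposite signs, -0.31 and 0.32. On replicate 1 of 3 h Cplx3 differed by -0.23. The difference between the times was tested in 1 fit of all 32 arrays: 701 genes (5.15%) were past both limits and 715 (5.25%) had an unadjusted p under 0.05, but none had an adjusted p under 0.05 (lowest 0.699). For Aqp2 the difference was 0.28 ± 0.18 at 3 h, and the times were not told apart (unadjusted p = 0.56). Igfbp5 was at -0.51 ± 0.32 at 3 h, with mixed signs on the slides (-1.471, -1.012, 0.255 and 0.194). Omd, Krt5 and Fcgr2b were not tested at 3 h because their probes did not pass the filter on dim signals there.

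Against untreated cells, both groups had more genes past the limits than against each other. Control held position 1 on every slide, so that position and treatment cannot be told apart here either. Ang II x Control had 2148 genes past both limits at 6 h (13.1%), with a lowest adjusted p of 0.0575 and 3533 genes (21.5%) at an unadjusted p under 0.05. Ang II + Los x Control had 2212 (13.5%), of which 1071 were higher (6.51%) and 1141 lower (6.94%). In that comparison 224 genes (1.36%) had an adjusted p under 0.05, 131 higher and 93 lower, with a lowest value of 0.0264. This count was 3 without replicate 1, 0 without replicate 2, 796 without replicate 3 and 0 without replicate 4. It was examined after the data had been seen. Both comparisons share their Control arrays, and the test of the difference between them is Ang II + Los x Ang II itself, with its 175 genes past the limits and 0 at an adjusted p under 0.05.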

How the data were processed

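Gene expression was measured in C6 cells on 32 one-colour arrays (Agilent 4x44K, rat). Per the file headers and the submitters' processing notes, the authors scanned the arrays and extracted spot intensities with Agilent Feature Extraction 9.5.3.1, which subtracts a local background and gives each spot a processed signal. The deposited value table holds, per probe, log2 of that processed signal with no scaling between arrays. In it 38.2% of values were blank, and the 561803 compared with the scanner files were 100% equal within 1e-06. It was used as an alternative after the same normalization. Arrays were grouped by title.

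From the 42877 transcript spots, outlier spots were left out, spots of a probe averaged (30367 probes, 26583 gene names) and log2 signals normalized by cyclic loess (span 0.7, 3 iterations) among the 16 arrays of a time. Probes missing on more than 2 arrays were dropped, a probe stayed in if any group had all 4 of its arrays well above background, and probes of a gene were averaged, leaving 18622 probes and 16446 genes at 6 h. Gaps remained in 66 genes, which were fitted on the arrays left. On the 3 h arrays, signals not above background took their error as value, for 6670 to 11589 spots per array. On the 6 h arrays the software set such values itself and 0 spots were replaced. Cross-hybridization and a local background that differs between slides would enter these values, and the number of arrays limits their precision.

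limma 3.58.1 in R 4.3.3 was fitted to the 16 arrays of 6 h with the replicate number as block and p-values adjusted by the Benjamini-Hochberg method over all genes. The labels number the replicates alike in every group, and same-numbered arrays lay on 1 slide. Deviations of same-numbered Ang II + Los and Ang II arrays from their group means correlated at 0.826, 0.733, 0.661 and 0.824, each the best match of its number. The times were compared in 1 fit of 32 arrays. Differences are log2 with SE, and the script was tested on simulated data.

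Genes are named by a rule: the 15 highest and 15 lowest differences among genes with a symbol, an unadjusted p under 0.05, 1 sign on all 4 slides and signals well above background on all 8 arrays, then members of 42 gene lists past the limits, or else the highest and lowest, and all tested genes of the study's own lists. Further list members with an unadjusted p under 0.05, and the genes shared by both times, were chosen after their values were seen. The comparison, lists and tests were chosen with earlier results of these data known. Values of a few genes, 1 of the 30 by the rule among them, are not reported here. Symbols are those of the files. Of 15648 accessions of curated transcripts 14593 matched the reference gene table. Alternatives were no block, a t-test per gene (paired, as the series record names it, and unpaired, since the methods name t-tests for the arrays without pairing), the 8 arrays alone, other normalizations (75th percentile, quantile, normexp with an offset of 50), filters, single probes, the deposited values, fold limits of 1.2 and 0.8, and each replicate left out.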

Additional observations from a re-analysis of the deposited data

Results flagged for a closer look

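In 12 of 110 groups of 4 arrays checked (10.9%), 1 array lay far from the other 3 by Dixon's criterion. Chance alone flags about 1 of 20 independent groups, but same-numbered arrays of both treatments varied together. Cstf3 and Rad51c, described below, were checked because of a fold that rested on 1 array. The 10.9% can therefore not be tested against that rate. Of the 12, 4 were replicate 1 of Ang II and 4 replicate 1 of Ang II + Los. Values are normalized log2 signals on replicates 1 to 4, and no cause was tested.

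Bcar1, the focal adhesion scaffold, had replicate 1 as its highest array in both groups, 11.02 in Ang II (others 10.54 to 10.59) and 10.88 in Ang II + Los (others 10.40 to 10.44), so that the difference within the slide was not affected. In Ang II, replicate 1 was also highest for Cplx3 at 6.74 (others 5.10 to 5.18) and for Gstm6l at 5.83 (others 4.40 to 4.54), and lowest for Acrbp at 3.47 (others 3.88 to 3.95). In Ang II + Los it was lowest for Fcgr2b at 5.84 (others 6.46 to 6.52), for Lamb1 at 10.04 (others 10.65 to 10.78) and for Olr233 at 2.75 (others 3.35 to 3.42).

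Replicate 4 of Ang II + Los was highest for Map2k4 at 6.94 (others 6.23 to 6.31) and for Sesn1 at 3.89 (others 3.29 to 3.33). Replicate 4 of Ang II was highest for Cstf3, an RNA cleavage factor, at 17.6 against 6.94 to 7.33, and replicate 3 of Ang II + Los was lowest for Rad51c, a recombination gene, at 1.38 against 5.58 to 6.37. Cstf3 and Rad51c were chosen after their values were seen, as 2 of 9 genes with a fitted fold of 2 or more.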

How the results depend on the processing

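No gene of Ang II + Los x Ang II had an adjusted p under 0.05 under any alternative run, with a lowest adjusted p of 0.198 in the paired t-test. The 175 genes past both limits became 35 without the replicate block (33 shared), 78 with the paired t-test of the series record and 42 with the unpaired one, 302 with the 8 arrays alone, 9 with normexp, 103 with signals well above background on all 16 arrays, 504 without the filter, 95 with the deposited values, and 132 to 494 when 1 replicate was left out (494 without replicate 1). The share of higher genes, 50.3%, became 65.7% without the block, 41% and 69% with the paired and unpaired t-test, 62.4% with the 75th percentile, 88.9% with normexp, 59.2% with the strict filter, 59.5% with fold limits of 1.2 and 0.8, and 43.3% to 60.1% with 1 replicate left out. The median of all genes, -9e-04, moved to 0.0124 with the 75th percentile and to -0.0041 to -2e-04 with 1 replicate left out. For 6 h minus 3 h, 701 genes past the limits became 104 without the block, 345 with the compared arrays alone, 420 with normexp, 1058 without the filter, 463 with the deposited values and 151 to 1212 with 1 replicate left out (151 without replicate 2, 1212 without replicate 3), and none had an adjusted p under 0.05. For Ang II + Los x Ang II + PD, 829 became 158 without the block, 126 with normexp, 1482 without the filter, 469 with the deposited values and 602 to 1246 with 1 replicate left out (1246 without replicate 1); 4 genes had an adjusted p under 0.05 without the filter, among them the olfactory receptor Olr1179. For Ang II + Los x Control, alternatives added after seeing the data turned 224 genes at an adjusted p under 0.05 into 0 without the block, 340 with normexp, 426 with the strict filter, 1 without the filter and 0 to 796 with 1 replicate left out. The cause was not tested. Of 37 named genes with an unadjusted p under 0.05, all kept their direction, which the choice of genes partly fixes, and Aqp2 alone kept its side of the limit under all of its 15 alternatives (log2 0.184 to 0.451, highest p 0.0327). Signal limits the dim genes, which make up most of the 175.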

Other observations

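Of the 9 genes with a fitted fold of 2 or more, chosen after their values were seen, 6 were past both limits and had no gene symbol. The remaining 3, Cstf3 at -2.53, RGD1565904 (a placeholder name) at -1.41 and Rad51c at -1.16 (log2), were not past the limits, and each rested on 1 slide. RGD1565904 was at 7.10, 7.38, 1.28 and 7.43 in Ang II + Los and at 6.98 to 7.49 in Ang II. Cstf3 differed by -10.35 on replicate 4 and by -0.26 to 0.34 on the others, and Rad51c by -5.11 on replicate 3 and by 0.04 to 0.26 on the others.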
